A study of Homo sapiens with 2 samples.

Results

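Transcripts of 5 genes that low oxygen is known to induce, and that lie outside the glycolytic pathway, were followed in C4-2 cells given vehicle or ebastine: CA9, ANKRD37, NDRG1, LOX and ERO1L. They are 5 of the 1947 genes in the deposited table. They were chosen by name after their FPKM values in these same libraries were known to be lower with ebastine, so the values below describe them and test nothing. C4-2 is an established line of human prostate cancer cells, a castration-resistant derivative of LNCaP, and ebastine is an allergy drug that blocks the histamine H1 receptor. Cells of both groups were at passage 10 to 15 and were grown in RPMI-1640 medium with 10% serum. They were replated, left for 24 h to attach, and given new medium with vehicle (1 library) or with ebastine (1 library). The sources used here do not give the dose, the time of exposure, the kind of vehicle or the oxygen level of the cultures. With 1 library per group there is no spread between replicates and no test of any difference below. In RNA from a whole culture, fewer cells that express a gene and less RNA per cell cannot be told apart.

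Cells sense oxygen through prolyl hydroxylases of the EGLN family, which mark the alpha subunits of hypoxia-inducible factor (HIF) for destruction while oxygen is present. When oxygen is short the alpha subunits persist, pair with ARNT, and bind a short DNA element, the hypoxia response element, near their target genes. Those targets include glycolytic enzymes and also genes of acid removal, matrix stiffening, protein folding and survival. CA9 is a membrane carbonic anhydrase that helps tumour cells keep their internal pH. LOX, lysyl oxidase, crosslinks collagen and elastin. ERO1L, now named ERO1A, is the endoplasmic reticulum oxidase that passes oxidising power to protein disulfide isomerase. NDRG1 is a stress-induced cytoplasmic protein whose gene is also androgen-responsive in prostate cells. ANKRD37 is a small ankyrin repeat protein and a direct HIF target.

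The promoters are shown because the hypoxia response element lies near many hypoxia-induced genes. Whether it bears on the lower values with ebastine was not tested. The core of the element was searched as ACGTG and as GCGTG on both strands, in windows from 250 bases before to 50 bases after the annotated start. The windows come from RefSeq on GRCh38.p14 and were matched for 4 of the 5 genes (CA9, ANKRD37, LOX and, as ERO1A, ERO1L; not NDRG1). The 250 bases before the start are printed 5′ to 3′ on the strand of the gene, with each match on either strand in capitals. LOX has 3 annotated starts and the outermost was used.
CA9, chr9:35673678-35673927, plus strand: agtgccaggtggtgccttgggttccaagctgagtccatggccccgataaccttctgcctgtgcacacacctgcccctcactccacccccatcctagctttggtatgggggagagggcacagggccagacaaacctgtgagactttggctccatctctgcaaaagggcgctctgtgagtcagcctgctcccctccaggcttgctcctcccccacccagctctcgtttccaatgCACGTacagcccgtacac
ANKRD37, chr4:185396591-185396840, plus strand: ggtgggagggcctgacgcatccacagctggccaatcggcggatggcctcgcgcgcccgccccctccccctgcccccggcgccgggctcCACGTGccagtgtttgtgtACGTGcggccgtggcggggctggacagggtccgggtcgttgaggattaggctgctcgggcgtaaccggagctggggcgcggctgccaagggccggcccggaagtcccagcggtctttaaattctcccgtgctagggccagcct
LOX, chr5:122078260-122078509, minus strand: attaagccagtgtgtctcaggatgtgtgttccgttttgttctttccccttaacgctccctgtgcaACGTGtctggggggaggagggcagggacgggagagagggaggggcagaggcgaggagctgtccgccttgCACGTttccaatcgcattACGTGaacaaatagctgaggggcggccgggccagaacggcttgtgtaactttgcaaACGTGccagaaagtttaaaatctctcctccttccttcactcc
ERO1L, chr14:52695559-52695808, minus strand: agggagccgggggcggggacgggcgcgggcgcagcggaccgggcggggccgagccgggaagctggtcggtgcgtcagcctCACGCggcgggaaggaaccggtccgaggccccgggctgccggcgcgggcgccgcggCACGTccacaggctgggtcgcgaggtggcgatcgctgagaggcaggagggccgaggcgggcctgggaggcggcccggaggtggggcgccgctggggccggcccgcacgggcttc

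All 4 windows held ACGTG. In CA9 there was 1 match, on the strand opposite to the gene, beginning 18 bases before the start. ANKRD37 had 3 matches. Those that begin 162 and 161 bases before the start overlap in a palindrome, in which ACGTG reads on either strand, and the other begins 143 bases before the start. LOX had 4 matches, beginning 185, 116, 98 and 42 bases before the start, the one at 116 on the opposite strand. ERO1L had 1 ACGTG, 114 bases before the start, and 2 matches to GCGTG, of which the one beginning 27 bases after the start is not printed. The motif is short and common. Over 1 window for each of 27305 genes, 21.6% held ACGTG and 48.4% held either form. Of 1505 listed genes with a window, 27.3% held ACGTG, and of 272 listed genes at least 1.5-fold lower with ebastine, 27.6% did. At least 3 ACGTG matches, as in ANKRD37 and LOX, were found in 2.05% of all 27305 windows. The share was 3.06% of the 1505 listed genes and 1.84% of the 272. ANKRD37 reaches 3 because its palindrome counts as 2 matches. The GC content of the printed stretches ran from 55.2% in LOX to 81.6% in ERO1L, with 60.4% in CA9 and 71.6% in ANKRD37. A match is a description of the letters, and no binding was measured.

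**Figure D1:**
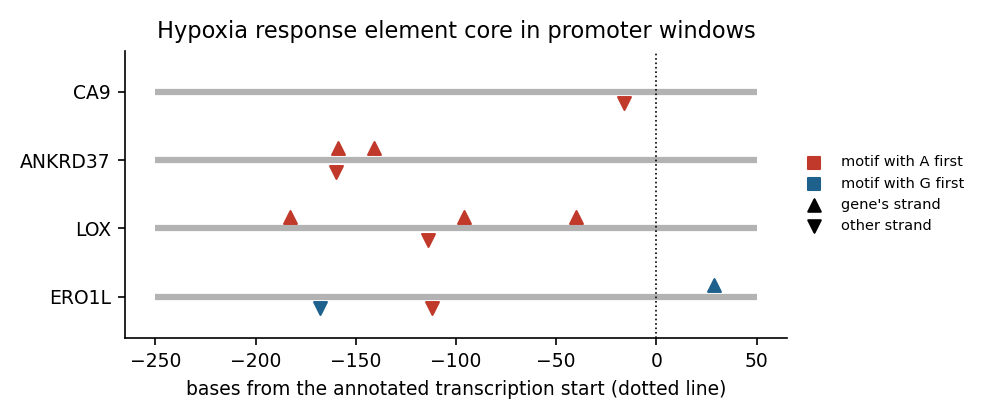
Positions of the hypoxia response element core in the promoter windows of CA9, ANKRD37, LOX and ERO1L. The horizontal axis is the distance in bases from the annotated start, grey bars are the 300-base windows, red marks are ACGTG and blue marks GCGTG, and triangles pointing up lie on the strand of the gene. LOX holds 4 marks spread over the window, ANKRD37 holds 3 close together, and the mark of CA9 lies 18 bases before the start.

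All 5 genes were lower in the ebastine library, and together their FPKM (fragments mapped to a gene, per kilobase of its transcript and per 1000000 mapped in all) summed to 160.5 with vehicle and 82.7 with ebastine. Their levels spanned a 27.0-fold range with vehicle, from 3.46 FPKM for LOX to 93.3 FPKM for NDRG1, and NDRG1 alone made up 58.1% of the sum. The order of levels was NDRG1, ERO1L, ANKRD37, CA9, LOX with vehicle. With ebastine CA9 and LOX, the lowest pair, exchanged places, and without replicates it is not known whether that pair differed in either library.

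CA9 stood at 3.70 FPKM in the vehicle library and 0.827 FPKM in the ebastine library. The ebastine library thus held 22.3% of the vehicle level, the smallest remainder of the 5 genes. On the scale used for every ratio here, log2 of (FPKM in ebastine + 1) over (FPKM in vehicle + 1), CA9 was at -1.36, a 2.57-fold difference. The added 1 FPKM weighs on a gene this low: the plain ratio of the FPKM values was 4.48-fold. In the authors' deposited table CA9 had a q-value of 0.177, and it was the only member above 0.05. Its reported locus, in hg19 coordinates, is chromosome 9, 35658287 to 35681154, a span of 22.9 kb where the RefSeq gene is 7.23 kb long. The same locus is given for the listed gene ARHGEF39, a guanine nucleotide exchange factor that is the coding neighbour of CA9. ARHGEF39 stood at 13.5 FPKM in the vehicle library and 6.93 FPKM in the ebastine library, a log2 ratio of -0.87. The sources used here do not say how reads were divided between the pair, and the part of ARHGEF39 in the CA9 value was not tested.

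LOX stood at 3.46 FPKM in the vehicle library and 1.05 FPKM in the ebastine library. It kept 30.5% of the vehicle level, next after CA9, and the log2 ratio was -1.12, a 2.17-fold difference (3.28-fold as a plain ratio). In the authors' deposited table LOX had a q-value of 0.00178, the smallest value in that table, which 385 genes share. The locus is chromosome 5, 121398890 to 121414055 in hg19. Its span of 15.2 kb is close to the 15.1 kb of the RefSeq gene, which SRFBP1 overlaps in that annotation. SRFBP1 is not in the table, and its part in the LOX value was not tested.

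ERO1L stood at 43.9 FPKM in the vehicle library and 26.7 FPKM in the ebastine library. The difference was the smallest of the 5, a log2 ratio of -0.69 or 1.62-fold, and 60.9% of the vehicle level remained. In the authors' deposited table ERO1L had a q-value of 0.00178. The locus is chromosome 14, 53108605 to 53162419 in hg19, and no other listed gene shares it.

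NDRG1 stood at 93.3 FPKM in the vehicle library and 46.6 FPKM in the ebastine library. This was the largest difference in FPKM among the 5 genes, 46.7 FPKM, and 49.9% of the vehicle level remained. The log2 ratio was -0.99, or 1.98-fold. In the authors' deposited table NDRG1 had a q-value of 0.00178. The locus, chromosome 8, 134249414 to 134309547 in hg19, spans 60.1 kb, as the RefSeq gene does.

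ANKRD37 stood at 16.2 FPKM in the vehicle library and 7.48 FPKM in the ebastine library. The log2 ratio was -1.02, or 2.02-fold, with 46.3% of the vehicle level left. In the authors' deposited table ANKRD37 had a q-value of 0.0309. Its reported locus, chromosome 4, 186317840 to 186347139 in hg19, spans 29.3 kb where the RefSeq gene is 3.88 kb long. LRP2BP and UFSP2 overlap the gene in RefSeq, neither is among the listed genes, and their part in the ANKRD37 value was not tested.

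**Figure D2:**
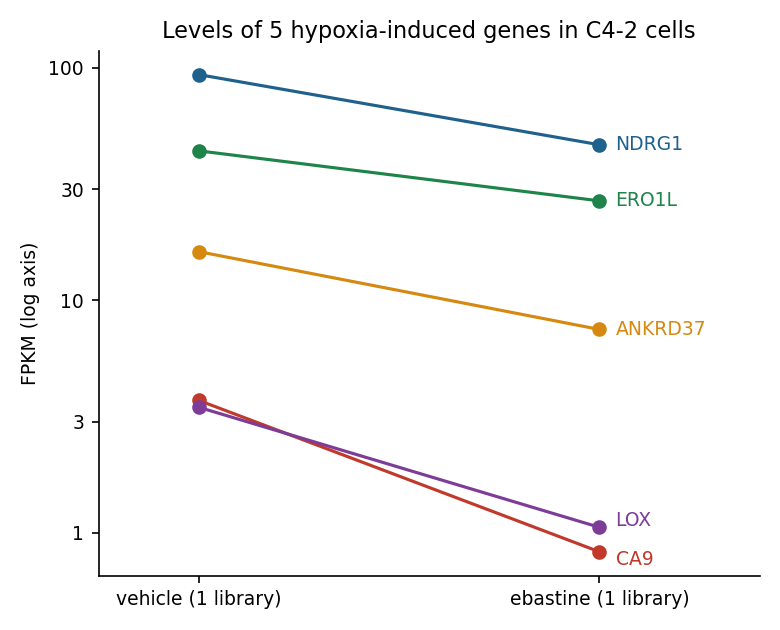
Levels of CA9, ANKRD37, NDRG1, LOX and ERO1L in FPKM (vertical log axis) in the vehicle library and the ebastine library; each point is 1 library and lines join the values of a gene. Every line slopes down, most steeply for CA9 (3.70 to 0.827 FPKM) and LOX (3.46 to 1.05 FPKM), and least for ERO1L (43.9 to 26.7 FPKM).

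The table itself sets the background for these ratios. It holds only genes with a p-value of at most 0.0499 in the authors' test, which are 14.2% of the 13714 genes that their q-values imply were tested. Genes listed at a mean of 1 FPKM or more numbered 1768, and 57.0% of these were lower with ebastine at any ratio, with a median log2 ratio of -0.32. All 5 members passed that minimum and all 5 were at least 1.5-fold lower, a mark that 18.6% of the 1768 genes passed. At 2-fold, 3 of the 5 (CA9, LOX and ANKRD37) passed, beside 4.86% of the 1768. The authors' deposited table gives 4 of the 5 a q-value under 0.05, beside 25.4% of its genes that were lower at that limit. The members were chosen on this contrast, so these shares describe the choice. Counted from the lowest log2 ratio among the 1768 genes, CA9 ranked 17, LOX 52, ANKRD37 80, NDRG1 91 and ERO1L 217.

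**Figure D3:**
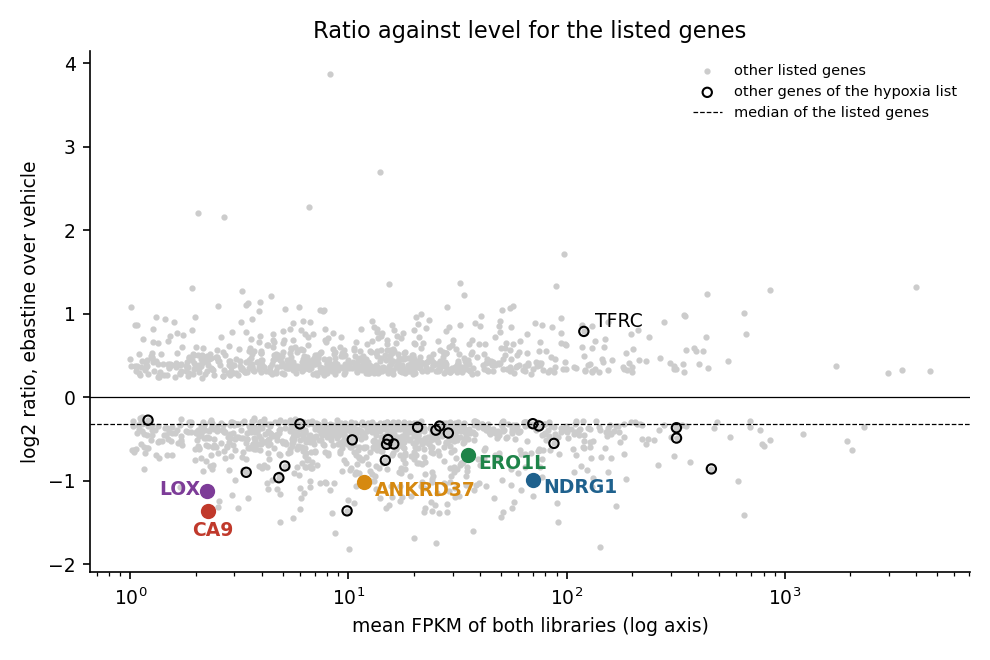
Log2 ratio of ebastine over vehicle (vertical axis, pseudocount of 1 FPKM) against the mean FPKM of both libraries (horizontal log axis) for the 1768 genes listed at a mean of 1 FPKM or more. Coloured points are the 5 members, between -0.69 and -1.36, open circles are 22 other genes of the hypoxia list, of which TFRC alone lies above 0 (joined by BNIP3L once the ratios are centred on the median of genes at 10 FPKM or more), and the dashed line is the median of -0.32; the empty band around 0 reflects the p-value limit of the table.

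The library scaling bears on all 5 ratios, and less on the low genes because of the added 1 FPKM. Since more listed genes were lower than higher, multiplying the ebastine values by 1.26, which brings the median log2 ratio of genes listed at a mean of 10 FPKM or more to 0 (centring below), left all 5 members lower with smaller differences. CA9 was then at -1.20, LOX at -0.94, ANKRD37 at -0.72, NDRG1 at -0.66 and ERO1L at -0.37, where ERO1L no longer passed 1.5-fold. Under this scaling 122 of the 1768 genes, or 6.90%, were at least 1.5-fold lower and 705 at least 1.5-fold higher, against 328 and 171 without it. With equal upper quartiles the split was 184 lower and 431 higher. Both scalings rest on listed genes only, and the p-value limit leaves out ratios near 0. The median used for centring therefore depends on that limit and need not be the true library scaling. Equal sums of the listed FPKM values needed a factor of only 1.001.

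**Figure D4:**
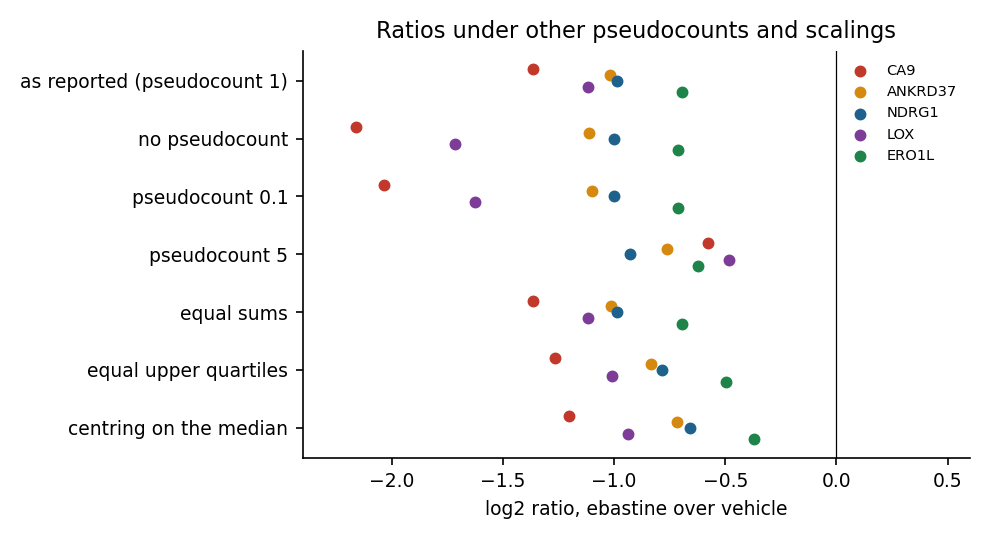
Log2 ratio of ebastine over vehicle for the 5 members (horizontal axis) under each pseudocount and each scaling of the libraries (rows). Every point lies below 0, which none of these settings could have changed for these genes. CA9 and LOX move most with the pseudocount, from -2.16 to -0.58 and from -1.72 to -0.48. ERO1L is nearest to 0 after centring, at -0.37.

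The wider set of hypoxia-induced genes outside glycolysis was also mostly lower in the ebastine library. Of 49 other such genes 23 were listed, or 46.9%, beside 14.2% of all genes tested. The 49 may include genes that the authors did not test, so the bases of these shares differ. Of the 23, 22 had a mean of 1 FPKM or more. Of the 22, 21 were lower with ebastine and 1 was higher, beside 57.0% lower among all 1768. At least 1.5-fold lower were 6, or 27.3%, beside 18.6% of the 1768. The median log2 ratio was -0.50, beside -0.32 for all 1768. After centring 20 of the 22 were lower, with a median of -0.17; BNIP3L, named after its values were seen, then changed sides. At a q-value under 0.05, 12 of the 23, or 52.2%, were lower and 1 was higher in the authors' deposited table, beside 25.4% of its genes that were lower at that limit. The list comes from knowledge of hypoxia and was chosen with earlier results of these data known.

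PLOD2, a lysyl hydroxylase that prepares collagen for crosslinking, had the lowest log2 ratio of the 22 at -1.36, from 14.6 to 5.09 FPKM. TMEM45A, a membrane protein, went from 6.66 to 2.93 FPKM, and STC1, a secreted glycoprotein hormone, from 4.72 to 2.07 FPKM. BNIP3, a mitochondrial protein of mitophagy and cell death, was far more abundant, at 594 FPKM in the vehicle library and 328 FPKM in the ebastine library. PPFIA4, a liprin, was at 6.80 and 3.41 FPKM, and the fucosyltransferase FUT11 at 18.0 and 11.9 FPKM. TFRC, the transferrin receptor, was the gene on the other side, at 87.6 FPKM in the vehicle library and 152 FPKM in the ebastine library. Its log2 ratio of 0.79 passed 1.5-fold higher, as 9.67% of the 1768 genes did. Iron also governs TFRC through the stability of its messenger RNA.

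Promoter windows were found for 18 of the 23 listed genes, and 10 of the 18, or 55.6%, held ACGTG, beside 27.3% of the listed genes. None of the 18 held as many as 3 matches. The hypoxia list names genes already known as HIF targets, so its share is not independent of the motif.

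Of 13 genes of the oxygen-sensing system itself, 2 were listed, or 15.4%, close to the 14.2% of all genes tested. Both of them are hydroxylases. EGLN3, which HIF induces, stood at 18.8 FPKM in the vehicle library and 10.7 FPKM in the ebastine library, a log2 ratio of -0.75. EGLN1, also HIF-induced and the main hydroxylase of HIF alpha, stood at 23.4 and 18.1 FPKM, a ratio of -0.36. The authors' deposited table gives EGLN3 a q-value of 0.00178 and EGLN1 one of 0.214. The table does not list HIF1A, EPAS1, ARNT or VHL, so their levels are unknown here.

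Beside CA9, values are given for 3 other listed genes of pH regulation. CA8, a carbonic anhydrase relative without catalytic activity, went from 1.53 to 0.715 FPKM. SLC16A3, a lactate exporter, went from 74.7 to 47.9 FPKM, and the bicarbonate importer SLC4A7 from 8.81 to 5.89 FPKM. The other hypoxia-induced carbonic anhydrase, CA12, is not among the listed genes.

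Of 23 genes of collagen and its maturation, 6 were listed, LOX among them, or 26.1% beside 14.2% of all genes tested. The enzymes LOX, PLOD2, P4HA1 and PLOD1 were all lower, and the matrix proteins FN1 and COL5A1 were higher. Among all 1768 genes, 57.0% were lower. LOX was chosen for its lower value, and PLOD2, P4HA1 and PLOD1 also stand on the hypoxia list. The authors' deposited table gives PLOD1 a q-value of 0.184 and FN1 one of 0.0942, both above 0.05. The other listed genes are below that limit. Whether the enzymes differ from the matrix proteins as a group was not tested. P4HA1, the prolyl hydroxylase subunit that stabilises the collagen helix, stood at 104 FPKM in the vehicle library and 70.8 FPKM in the ebastine library. PLOD1 stood at 83.6 and 65.7 FPKM. Fibronectin, FN1, stood at 32.1 and 45.4 FPKM, and the collagen chain COL5A1 at 0.943 and 2.32 FPKM. None of the 4 LOX-like genes on the list was in the table.

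Of 18 genes of oxidative folding in the endoplasmic reticulum, 5 were listed, or 27.8%, beside 14.2% of all genes tested. ERO1L had the largest log2 ratio in size, and the authors' deposited table puts ERO1L alone of the 5 below a q-value of 0.05. Its paralogue ERO1LB stood at 5.14 FPKM in the vehicle library and 3.58 FPKM in the ebastine library, GPX8 at 8.44 and 6.19 FPKM, and the peroxiredoxin PRDX4 at 204 and 162 FPKM. The chaperone ERP29 was higher, at 74.2 and 93.5 FPKM. After centring PRDX4 changed sides. Protein disulfide isomerase itself (P4HB), which ERO1L oxidises, is not among the listed genes, and neither are NDRG2, NDRG3 and NDRG4 of the NDRG family.

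**Figure D5:**
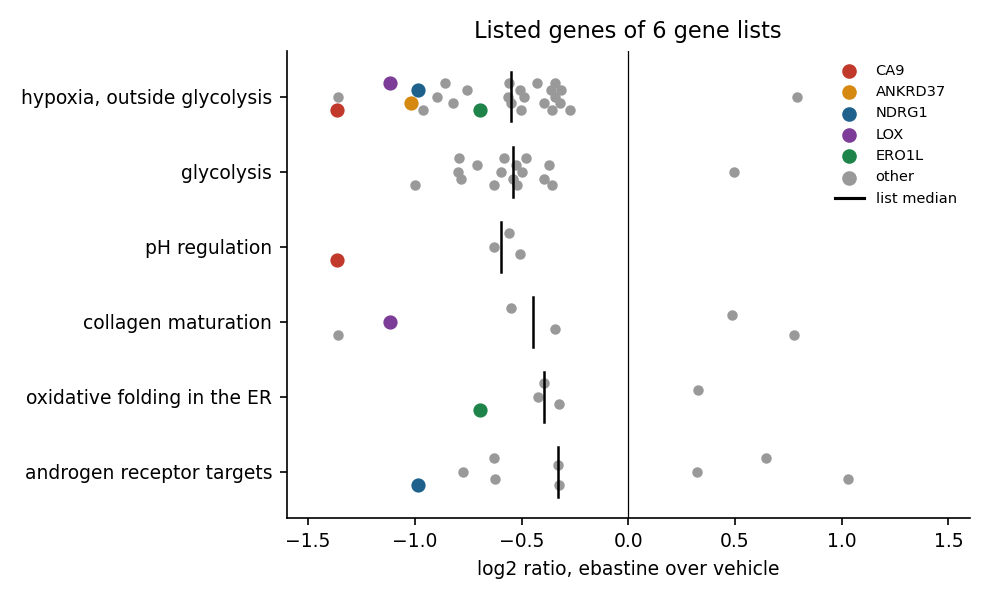
Log2 ratio of ebastine over vehicle (horizontal axis, pseudocount of 1 FPKM) for genes of 6 lists that the table gives at a mean of 1 FPKM or more (rows). Each point is a gene and members are coloured. Vertical bars are list medians with the members included, so the hypoxia bar lies at -0.55. The pH row lacks a gene not reported here, and no direction is drawn from its bar. CA9, ERO1L and NDRG1 lie lowest among the genes drawn in the pH, folding and androgen rows. In the collagen row PLOD2 lies beyond LOX. The members were chosen for lower values, so their places describe that choice. Some genes stand on more than 1 row.

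Glycolytic genes, the other arm of the hypoxia response, had ratios in the same range as the wider hypoxia list. Of 24 glycolysis and glucose-handling genes 18 were listed, or 75%, beside 14.2% of all genes tested. At a mean of 1 FPKM or more, 16 of the 17 were lower, beside 57.0% of all 1768. Their median log2 ratio was -0.54, beside -0.50 for the 22 hypoxia genes and -0.32 for all 1768. The lowest were PGK1 at -1.001, PFKFB4 at -0.80 and PFKFB3 at -0.79. ALDOC, named after its values were seen, was the gene on the other side. It stood at 99.7 FPKM in the vehicle library and 141 FPKM in the ebastine library, a log2 ratio of 0.49. After centring 16 of the 17 were lower, with a median of -0.21, beside -0.17 for the 22 hypoxia genes. With equal upper quartiles the medians were -0.34 and -0.30. The medians were not tested against each other.

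The genes nearest to each member in level and ratio came mostly from outside the hypoxia list, as do nearly all listed genes. The list holds only 28 of the 1947, so this count says nothing about the members. Likeness was the Euclidean distance in log2(FPKM + 1) over the 2 libraries, so it rests on 2 values per gene. These are the values on which the members were chosen, and a shared function or control was not tested. NDRG1 lay nearest to UBE2C, a ubiquitin-conjugating enzyme of mitosis, at 94.1 and 47.4 FPKM (distance 0.0272), and next to the spindle protein NUSAP1. ANKRD37 lay nearest to the nuclease subunit EME1, at 16.1 and 7.67 FPKM (0.0323), and then to the mitotic regulator CDCA2. ERO1L lay nearest to FANCI, of Fanconi anaemia DNA repair (0.0769), and to the condensin subunit NCAPD2. For CA9 the nearest genes were C2orf82 and LOX (0.181 and 0.185), and for LOX they were the phospholipase PLA2G4D and C2orf82 (0.167 and 0.177).

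The identity of the cells can be read in part. Of 14 prostate luminal genes 7 were listed, or 50%, beside 14.2% of all genes tested. Among the 7 were KLK3 at 2476 FPKM in the vehicle library and 1599 FPKM in the ebastine library, and FOLH1 at 495 and 840 FPKM. None of 8 basal and squamous or 10 fibroblast and endothelial markers was in the table, and of 8 leukocyte markers CD4 was, at 0.400 and 0.693 FPKM. A marker outside the table was not tested by the authors or had a larger p-value, so its absence gives no level.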

How the data were processed

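Polyadenylated RNA of 2 libraries was sequenced. The submitters' processing notes name TopHat2, Cuffdiff and hg19, without versions. The deposited table, per the file headers, has the layout of a Cuffdiff gene comparison: FPKM values estimated by the authors, the authors' log2 fold change, a test score that was left aside, and a deposited p-value with its q-value for each gene. The sources used here do not give the gene models, strand setting or scaling. The authors' test used 1 library per group, so it compares libraries and not conditions. The table's filter leaves out small ratios and overstates a list's median. The number of genes tested was derived from the smallest p-value and its q-value. Sequencing depth is unknown, and no counting error can be given.

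Ratios were log2((ebastine + 1)/(vehicle + 1)) with a pseudocount of 1 FPKM, and genes at a mean of 1 FPKM or more were counted at 1.5-fold and 2-fold. Locus starts were taken to count from 0 and were converted. List genes were matched by current and older symbols (1883 of 1947 names matched). The members and the 13 gene lists were chosen with earlier results of these data known. Genes named are the members, all listed genes of the oxygen-sensing, pH, collagen, folding and NDRG lists, the 12 lowest and any higher gene of the hypoxia list, the 3 lowest of the glycolysis, unfolded protein response and androgen lists, and the 2 genes nearest to each member; others are marked, except markers of cell identity. A gene of the pH list is not reported here and was left out of that list, so no count or direction is drawn from it. Calculations used Python 3.11.15 with pandas 2.3.3 and numpy 2.4.6, and were tested on simulated data. Alternatives were other pseudocounts, minimum means, scalings and a q-value limit.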

Additional observations from a re-analysis of the deposited data

How the results depend on the processing

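All 5 members and the median of the other hypoxia genes stayed below 0 under the alternatives tried. For the members and for that median this was fixed in advance and is no sign of robustness. A pseudocount, a minimum mean or a q-value limit cannot change the sign of a ratio. The largest scaling factor, 1.26, is below the smallest plain ratio of the 5, 1.64-fold for ERO1L. Of the 22 other hypoxia genes 21 were lower, and their median of 1.41-fold lower also exceeds 1.26. The balance of all genes did change. Without scaling 328 were at least 1.5-fold lower and 171 higher. After centring the counts were 122 and 705, and with equal upper quartiles 184 and 431. After centring BNIP3L, PRDX4, XBP1 and TMPRSS2 changed sides, and the median of the unfolded protein response genes listed was 0.016. No paired analysis was possible because each group holds 1 library. Leaving out a library was not possible either. The plain ratio without a pseudocount was chosen after seeing the data. For CA9, LOX, ANKRD37, NDRG1 and ERO1L in that order, the log2 ratio was -2.16, -1.72, -1.11, -1.002 and -0.71 without a pseudocount (median -1.11), -2.04, -1.63, -1.10, -1.001 and -0.71 with 0.1 FPKM (median -1.10), and -0.58, -0.48, -0.76, -0.93 and -0.62 with 5 FPKM (median -0.62). With equal upper quartiles the values were -1.27, -1.01, -0.83, -0.79 and -0.50 (median -0.83), and after centring -1.20, -0.94, -0.72, -0.66 and -0.37 (median -0.72). The order of the 5 genes therefore depends on the pseudocount: CA9 and LOX had the largest differences with 0.1 or 1 FPKM added and the smallest with 5 FPKM, where LOX and CA9 no longer passed 1.5-fold. The count of 5 members at least 1.5-fold lower became 3 with a pseudocount of 5 FPKM and 3 with a minimum mean of 5 FPKM, which leaves out CA9 and LOX. It was 4 after centring and with equal upper quartiles, without ERO1L, and 4 among genes with a q-value under 0.05, without CA9.

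The count of 328 genes at least 1.5-fold lower became 179 with a pseudocount of 5 FPKM. The count of 86 genes at least 2-fold lower became 25 after centring, 45 with equal upper quartiles and 30 with a pseudocount of 5 FPKM. The median of the other hypoxia genes, -0.50, was -0.17 after centring, -0.30 with equal upper quartiles, -0.51 and -0.39 with pseudocounts of 0.1 and 5 FPKM, -0.49 with no minimum mean and with a minimum mean of 5 FPKM, and -0.56 among genes with a q-value under 0.05. Equal sums moved no value by 0.005 or more on the log2 scale.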

Other observations

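NDRG1 also belongs to the androgen-responsive genes of prostate cells, and those genes included some on either side. Of 12 androgen receptor targets 9 were listed, or 75%, beside 14.2% of all genes tested. Of the 9, 6 were lower and 3 higher with ebastine, where 57.0% of all 1768 genes were lower. At least 1.5-fold lower were 4 of the 9, or 44.4%, beside 18.6% of the 1768. At least 1.5-fold higher were 2 of the 9, beside 9.67% of the 1768. Leaving out NDRG1, 3 of 8, or 37.5%, were at least 1.5-fold lower. Whether androgen signalling bears on the NDRG1 value was not tested. NDRG1 had the lowest log2 ratio of the 9. Without NDRG1 the median of the other 8 was -0.33, beside -0.32 for all 1768. KLK2, a kallikrein protease, was next at -0.77, from 465 to 272 FPKM, and KLK3 was at -0.63. After centring 5 of the 9 were lower and TMPRSS2, named after its values were seen, changed sides.

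Of 20 genes of the unfolded protein response 2 were listed, or 10%, beside 14.2% of all genes tested. The chaperone HSP90B1 stood at 396 FPKM in the vehicle library and 312 FPKM in the ebastine library. The transcription factor XBP1 stood at 218 and 178 FPKM. Neither passed 1.5-fold, and XBP1 changed sides after centring. ERO1L, which endoplasmic reticulum stress also induces, was at -0.69, beside -0.34 and -0.29 for HSP90B1 and XBP1. The levels of the unlisted genes are unknown here, and whether such stress bears on the ERO1L value was not tested.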
